A study of Homo sapiens with 2 samples.

Results

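The cells described here are the 10% of PC9 cells with the most RNA of PSCA and CEACAM6, called PSCA/CEACAM6-high cells below. PC9 is an established human lung adenocarcinoma line that carries an activating EGFR mutation. One culture was profiled, in which the cells had received a pool of sgRNAs against ATF4, CTCF, CTNNB1, JUN, MYC and PGAM1 or non-targeting control sgRNAs. Per the labels all cells, controls included, expressed dCas9, a Cas9 that does not cut, were transduced (40% infected, 8 ug/ml polybrene) and then selected with 1 ug/ml puromycin. The labels give both day 7 and day 8, and speak of knockout as well as knockdown, so the kind of perturbation is uncertain. Gene expression and the sgRNA of each cell were read from 2 libraries of the same cells, deposited as 1 matrix of 10847 barcodes.

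Barcodes were kept from 1000 gene UMIs (unique molecular identifiers, each standing for 1 captured RNA molecule) and 500 genes upward if mitochondrial UMIs did not exceed 20%, which left 10142 cells. The score of a cell was its PSCA and CEACAM6 UMIs divided by its gene UMIs, given below as counts per 1000000 gene UMIs (CPM). The 1014 cells with the highest scores were the members, and 3143 cells without a UMI of either gene and with at least 5000 gene UMIs were the comparison cells. The remaining 5985 kept cells lay between. Because PSCA and CEACAM6 RNA chose the cells and all of them come from 1 culture, the levels below are descriptions without a test. Levels are CPM of the UMIs summed over the cells of a group. The culture has no replicate, so the spread was taken over 7 subsets of cells, those carrying control sgRNAs and those carrying sgRNAs to each of the 6 targets. These hold between 17 (PGAM1) and 143 (CTNNB1) PSCA/CEACAM6-high cells.

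PSCA, prostate stem cell antigen, is a small protein of the LY6 family held on the cell surface by a lipid anchor. CEACAM6 is a lipid-anchored adhesion protein of the carcinoembryonic antigen family. Both are made by secretory and mucosal epithelia and are raised in many carcinomas, lung adenocarcinoma among them. CAPS, calcyphosine, is a calcium-binding protein abundant in ciliated airway cells, and IGFBP2 binds insulin-like growth factors outside the cell.

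The promoter stretches of CEACAM6, CEACAM5 and CA9 are shown because CEACAM genes and some hypoxia-inducible genes were higher in the members as a group. CEACAM6 chose the cells, so its level is set by the rule. Its neighbour CEACAM5 had the largest fold among the other CEACAM genes. CA9 is a classical target of the hypoxia-inducible factors. Of the members, 17.5% were among the cells highest in hypoxia-inducible genes. Whether hypoxia acts on the CEACAM genes was not tested. Only stretches that hold the motif marked here are shown. PSCA, which chose the cells as well, was not among the stretches looked at gene by gene. Its absence here does not mean that it lacks the motif. Each is the 250 bases before the start of the gene, read 5′ to 3′ on the plus strand from RefSeq (GRCh38.p14). The CEACAM6 stretch is chr19:41755280-41755529, the CEACAM5 stretch is chr19:41708376-41708625 and the CA9 stretch is chr9:35673678-35673927. Capitals mark ACGTG, a form of the core of the hypoxia response element. It was searched on both strands (CACGT on the other strand), including where it lies inside the overlapping palindrome CACGTG.
CEACAM6: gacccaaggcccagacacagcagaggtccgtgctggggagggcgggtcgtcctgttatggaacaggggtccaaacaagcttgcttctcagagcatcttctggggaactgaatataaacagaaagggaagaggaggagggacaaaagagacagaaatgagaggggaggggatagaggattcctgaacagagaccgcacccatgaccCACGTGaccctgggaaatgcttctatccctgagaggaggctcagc
CEACAM5: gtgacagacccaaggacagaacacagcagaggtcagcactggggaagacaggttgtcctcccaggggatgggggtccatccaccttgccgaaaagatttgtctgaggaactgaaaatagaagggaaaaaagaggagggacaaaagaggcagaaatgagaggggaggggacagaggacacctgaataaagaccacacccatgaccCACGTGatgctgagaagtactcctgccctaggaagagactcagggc
CA9: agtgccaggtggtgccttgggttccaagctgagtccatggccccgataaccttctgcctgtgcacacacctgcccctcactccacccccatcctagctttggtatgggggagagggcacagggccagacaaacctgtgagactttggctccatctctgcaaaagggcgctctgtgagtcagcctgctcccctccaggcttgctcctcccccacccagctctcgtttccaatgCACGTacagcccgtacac
The capitals begin 45 bases before the start in CEACAM6, 46 in CEACAM5 and 18 in CA9. The stretches of CEACAM6 and CEACAM5 were identical in 74.6% of alignment columns, against 68.3% for CEACAM6 and CEACAM1, whose stretch holds neither motif, and 47.2% for CEACAM6 and CA9. ACGTG was found in 18.5% and CACGTG in 6.34% of all 35116 promoter stretches of 250 bases, so a match is common. Of the 14 genes with the largest higher folds among those at 20 CPM or more with 1 direction in all 7 subsets, a rule that leaves out CEACAM5 and CA9, 9 are in the promoter table. Of these, 0 hold either motif in these 250 bases. The form GCGTG of the core was not searched. The IGFBP3 stretch holds it, and an HPGD stretch holds it on the other strand.

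The PSCA/CEACAM6-high cells held 350 CPM of PSCA (3954 UMIs) and 264 CPM of CEACAM6 (2977 UMIs), and the comparison cells held none by the rule. The median member scored 510.1 CPM and the highest 4650.4 CPM. The boundary was fine: the last cell inside had 3 UMIs among 8253 (363.5 CPM), and the first cell outside had 4 among 11006 (363.4 CPM). Among the members 30 held 1 UMI of these genes and 116 held 3 or fewer, so that counting error could move these cells across the boundary. PSCA was seen in 956 members and CEACAM6 in 875, and 817 held both. Of the rest, 139 held PSCA only and 58 CEACAM6 only. After all kept cells with enough UMIs were thinned to 5000 UMIs, CEACAM6 was found in 31.5% of the cells with PSCA and in 19.2% of the cells without it. The culture holds no cell type known to lack these genes, so the share due to free RNA was not measured.

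Some values of the cells themselves moved with the score and bear on what follows. The PSCA/CEACAM6-high cells had a median of 10257.5 gene UMIs and 2969 genes, against 11730 UMIs and 3314 genes in the comparison cells, and 50 of them had fewer than 5000 UMIs. Mitochondrial UMIs had medians of 10.6% and 10.7%. A single sgRNA was assigned to 53.6% of the members and 55.9% of the comparison cells, and sgRNAs of more than 1 target were seen in 7.79% and 7.16%. A distinct set of 304 kept cells with at least 3 UMIs of FABP5 and GTSF1 stood apart, with AKAP12 at 1936 CPM against 37.6 in all others. It held 224 of the comparison cells (7.13%) but 1 of the members, so genes high in these cells are at low folds in the members. Cells in the highest 5% for a list of 14 hypoxia-inducible genes made up 17.5% of the members (177 cells, exact 95% binomial interval 15.2 to 19.9%) and 2.42% of the comparison cells (76 cells, interval 1.91 to 3.02%). Results that rest on either set are given with and without it.

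Of 8054 genes with at least 10 CPM in the higher group, 361 (4.48%) were at least 1.5-fold higher in the PSCA/CEACAM6-high cells and 582 (7.23%) at least 1.5-fold lower. This level admits genes through the group in which they are high; with 10 CPM required over all kept cells instead, 273 of 7702 genes were higher and 528 lower. The median over all 8054 genes was -0.10 on the log2 scale. Higher genes included most of the interferon-induced list, AGR2, several mucin genes and some hypoxia-inducible genes. Most genes of the mitosis and DNA replication lists were lower. Among genes at 20 CPM or more in the higher group, 183 of the higher and 238 of the lower genes had the same direction in all 7 subsets, and the 14 largest folds in each direction were taken from these.

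The proposed markers CAPS and IGFBP2, which the score did not use, were both higher. CAPS was at 89.4 CPM (exact 95% Poisson interval 84.0 to 95.1, counting error only) in the members and 30.1 CPM (28.4 to 31.9) in the comparison cells, 2.97-fold. Over the 7 subsets it ran from 68.3 over a median of 92.3 to 124 CPM in members and from 21.1 over 34.6 to 47.8 CPM in comparison cells, without overlap. IGFBP2 was at 172 and 94.2 CPM, 1.83-fold, and its subsets also did not overlap, at 158 to 236 and 75.1 to 139 CPM. Of these markers CAPS had the larger fold.

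Genes of the secretory and mucosal list differed in both directions. Of 13 at 10 CPM or more in the higher group, 8 were at least 1.5-fold higher and 2 lower, with a median of 1.14 on the log2 scale against -0.10 for all genes. Some passed the level only through the members: of the 11 at 10 CPM over all kept cells 6 were higher and 2 lower, with a median of 0.62. The summed list was at 1676 CPM in members and 1577 in comparison cells, because its most abundant gene, LCN2, was lower. AGR2, a disulfide isomerase that folds mucins in the endoplasmic reticulum, was at 257 CPM against 49.9, 5.16-fold. In the members of the 7 subsets it lay between 250 and 298 CPM (median 272), and in comparison cells between 38.1 and 69.4 CPM (median 55.4), without overlap. BPIFB1, a secreted airway protein of the BPI fold family, was at 19.0 CPM against 1.07, 17.7-fold, and was seen in 15.6% of members and 1.30% of comparison cells. The membrane mucin MUC16 was 4.26-fold higher (29.9 and 7.01 CPM) and MUC20 3.19-fold higher (39.4 and 12.4 CPM). MUC1, a membrane mucin of epithelia, was at 20.4 and 9.23 CPM, and the gel-forming airway mucin MUC5B at 35.3 and 13.9 CPM. SPDEF, a transcription factor of goblet cells, was at 10.2 and 3.52 CPM. The subsets of MUC20 overlapped between members (18.2 to 45.6 CPM) and comparison cells (7.86 to 26.1 CPM), and those of MUC16 did not. In the PGAM1 subset MUC5B (22.8 and 23.8 CPM) and SPDEF (4.55 and 5.82 CPM) were not higher in members, while in the other subsets they were. The 2 lower genes of the list were LCN2 and PI3. LCN2, which binds bacterial iron carriers, was at 542 CPM in members and 884 in comparison cells, and PI3, the protease inhibitor elafin, at 42.3 and 74.5 CPM.

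**Figure D1:**
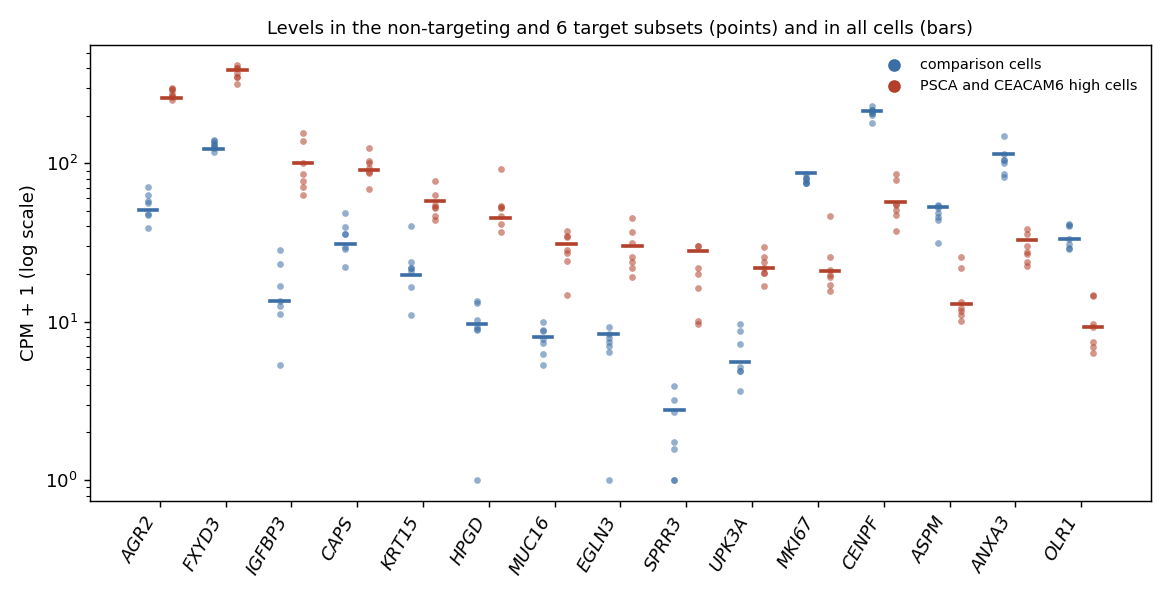
Levels of 15 named genes in PSCA/CEACAM6-high cells (red) and comparison cells (blue), as CPM + 1 on a log scale. Points are the non-targeting subset and the 6 target subsets, and bars are all cells of the group. AGR2 lies at 250 to 298 CPM in the member subsets and 38.1 to 69.4 CPM in the comparison subsets, and MKI67 lies the other way round.

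The other genes with large folds included barrier, secreted and surface genes. SPRR3, a small proline-rich protein of the cornified envelope, was at 26.9 CPM (interval 24.0 to 30.1) in members and 1.79 CPM (1.39 to 2.26) in comparison cells, 15.1-fold. It was seen in 13.7% of members and 1.88% of comparison cells, and 29.9% of its member UMIs lay in 10 cells. At 304 UMIs in 1014 members a cell without a UMI may still express it. Its subsets ran from 8.70 to 29.1 CPM in members and from 0 to 2.91 CPM in comparison cells. IGFBP3, a secreted carrier of insulin-like growth factors, was at 99.97 CPM against 12.6, 7.95-fold, with member subsets of 62.2 to 155 CPM and comparison subsets of 4.34 to 27.5 CPM. HPGD, which inactivates prostaglandins, was 5.06-fold higher (44.0 and 8.70 CPM). UPK3A, a membrane protein of the bladder lining, was 4.63-fold higher (21.0 and 4.54 CPM). FXYD3, a regulator of the sodium pump, was 3.16-fold higher at the higher level of 386 and 122 CPM, and KRT15, a keratin of basal cells, 3.02-fold higher (56.9 and 18.8 CPM). The remaining genes of the 14 were EGLN3, SPAG4, HOXA-AS2 and AC008397.1, between 3.18-fold and 3.96-fold higher. By the rule that chose them, these genes were higher in the members of each of the 7 subsets than in its comparison cells.

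Some keratins and surface proteins of the LY6 family were also higher, but most did not pass the fold. Of 7 keratins at level, 3 were at least 1.5-fold higher and 0 lower. KRT19, a keratin of simple epithelia, was at 3542 CPM against 1779, 1.99-fold, and the squamous marker KRT6A was nearly absent (4 and 6 UMIs). LY6D was at 347 and 184 CPM (1.88-fold), and LYPD3, a surface protein of stratified epithelia, at 58.0 and 25.99 CPM (2.23-fold). LY6K, a further gene of the family, was at 90.6 and 74.5 CPM. Of 7 LY6 and uPAR domain genes other than PSCA at level, 2 were at least 1.5-fold higher and 0 lower. The transcription factor ELF3 of differentiated epithelia was at 161 and 90.7 CPM, and the tight junction gene CLDN1 was lower, at 24.6 and 50.01 CPM. Of 5 genes of IGF binding proteins and ligands at level, 3 (IGFBP2, IGFBP3 and IGFBP6) were at least 1.5-fold higher and 0 lower.

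CEACAM5, the tumour antigen CEA, had the largest fold of the family, at 9.66 CPM (109 UMIs) in members and 0.306 CPM (12 UMIs) in comparison cells, 31.6-fold, below the 10 CPM level used for counting. In the 139 members with PSCA only it was at 3.59 CPM and in those with both genes at 10.5 CPM. CEACAM5 and CEACAM6 are similar neighbours, and the counting could split their reads, so this fold is uncertain. CEACAM1, a transmembrane member of the family, was at 4.34 and 1.58 CPM, with overlapping subsets.

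Of 24 interferon-induced genes at level, 16 were at least 1.5-fold higher and 1 lower, with a list median of 0.82 on the log2 scale. Of the 20 at 10 CPM over all kept cells, 12 were higher and 1 lower, with a median of 0.73. IFI27, a mitochondrial protein strongly induced by interferon, was at 321 CPM (subsets 263 to 567.9) against 134 CPM (subsets 111 to 200), 2.40-fold. IFIT1, which binds viral RNA, was 2.48-fold higher (91.3 and 36.8 CPM), IFI6 2.23-fold higher (152 and 68.2 CPM) and IFI44L 2.89-fold higher (28.5 and 9.87 CPM). The exception was the transcription factor IRF1, at 7.18 CPM in members and 11.8 in comparison cells. HLA class I genes did not share the direction as a list, with 1 of 8 higher and 1 lower. The lower one, HLA-B, was 0.142-fold in all cells and 0.483-fold without the FABP5 and GTSF1 cells.

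Some hypoxia-inducible genes were higher in the members, and some of these folds rested on cells very high in the list. Of 12 genes at level, 6 were at least 1.5-fold higher and 0 lower. Of the 7 at 10 CPM over all kept cells 4 were higher (INSIG2, P4HA1, BNIP3 and EGLN3), so that CA9 and NDRG1 entered through the members. At 10 CPM in the higher group 1 of 7 was higher without the hypoxia-high cells, which were chosen by the same genes. CA9, a carbonic anhydrase that regulates surface acidity, was at 16.4 CPM (subsets 12.3 to 24.1) against 2.04 CPM (subsets 0 to 4.58), 8.04-fold. Without those cells CA9 was 5.29-fold higher, but at 6.33 CPM in members it was below the 10 CPM level used for counting. EGLN3, an oxygen-sensing prolyl hydroxylase, was 3.96-fold higher and 2.48-fold without them. At 14.1 CPM in the remaining members it was the 1 gene still counted as higher. NDRG1, a stress-induced gene, was 2.88-fold higher and 1.88-fold without them, where it was below the level for counting. P4HA1, a collagen prolyl hydroxylase, was 2.11-fold and 1.33-fold higher, and the mitophagy gene BNIP3 1.51-fold and 1.10-fold. VEGFA, the angiogenic growth factor, lay at 32.1 and 35.1 CPM. IGFBP3 was 7.95-fold and 5.76-fold higher, AGR2 5.16-fold and 4.41-fold, and SPRR3 15.1-fold and 12.03-fold. The part of the hypoxia-high cells in the remaining folds was not tested.

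**Figure D2:**
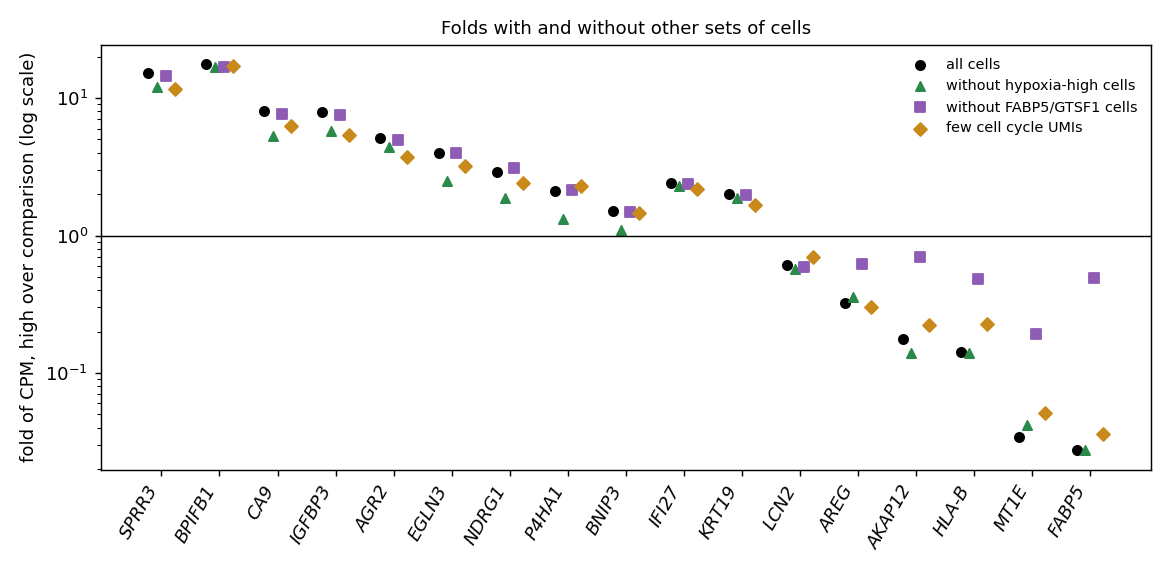
Folds of CPM, PSCA/CEACAM6-high over comparison cells, on a log scale for 17 genes, in all cells, without hypoxia-high cells, without FABP5 and GTSF1 cells and in cells with few cell cycle UMIs. BPIFB1 is 16.7-fold to 17.7-fold higher in all of them, P4HA1 is 1.33-fold higher without hypoxia-high cells, and the low folds of AKAP12, HLA-B, MT1E and FABP5 are closer to 1 without FABP5 and GTSF1 cells.

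Genes of cell division were the largest group of lower genes. Of 52 G2/M and mitosis genes at level, 47 were at least 1.5-fold lower and 0 higher, with a list median of -1.48, and of 33 G1/S and DNA replication genes 25 were lower and 0 higher (median -0.77). Of 7 clustered histone genes 6 were lower and 0 higher. MKI67, a marker of cycling cells, was at 20.03 CPM (subsets 14.6 to 45.6) in members and 86.5 CPM (subsets 73.9 to 84.2) in comparison cells, 4.32-fold lower. CENPF, a kinetochore protein, was 3.84-fold lower (55.7 and 214 CPM), and CEP55, ASPM, KIF14, DEPDC1, NUF2, DLGAP5, ANLN, PRR11, HMMR and AURKA, genes of spindle, centrosome and cell cleavage, were each at 0.217 to 0.279 of the comparison level. At a common depth of 5000 UMIs a MKI67 UMI was found in 6.74% of members and 24.4% of comparison cells (12.1% and 40.8% before thinning). The summed G2/M list then had a median of 5 UMIs in members and 12 in comparison cells.

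To see what remained away from the cycle, the comparison was repeated in the 803 members and 1366 comparison cells with few cell cycle UMIs, a selection that itself uses these lists. There 306 genes were at least 1.5-fold higher and 235 lower. MKI67 was 2.14-fold lower (2.60 and 5.56 CPM) and ANLN 1.05-fold the comparison level (2.25 and 2.14 CPM). Both were below the 10 CPM level used for counting, in cells selected for few UMIs of such genes. UBE2C was 1.03-fold (20.8 and 20.2 CPM) and HMGB2 1.01-fold (34.6 and 34.2 CPM) the comparison level. AGR2 was 3.73-fold higher, SPRR3 11.6-fold, BPIFB1 17.0-fold and CAPS 2.40-fold. ANXA3, a membrane-binding annexin, and OLR1, a scavenger receptor for oxidised lipoprotein, are not known for a role in division. They were among the 14 lowest folds of genes at 20 CPM or more with the same direction in all 7 subsets. ANXA3 was 3.57-fold lower in all cells (31.6 and 113 CPM, subsets 21.4 to 37.3 and 81.0 to 148) and 3.01-fold in those with few cycle UMIs, and OLR1 3.94-fold (8.24 and 32.4 CPM) and 3.81-fold.

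Most NF-kB targets and some EGFR-linked genes were lower. Of 10 NF-kB targets at level, 8 were at least 1.5-fold lower and 0 higher, and 5 of 10 were lower in cells with few cell cycle UMIs. The cytokine LTB was at 12.8 and 49.8 CPM, the chemokine CXCL1 at 16.2 and 33.4 CPM and the adhesion receptor ICAM1 at 18.6 and 33.7 CPM. Of 18 EGFR-MAPK feedback and ligand genes, 8 were lower and 1, the receptor EPHA4, was higher. Some of these rested on the FABP5 and GTSF1 cells: 5 were lower without them, and the EGFR ligand AREG moved from 0.321 to 0.620 of the comparison level. IER3, an early response gene, was at 152 and 282 CPM, and 0.635-fold without those cells. The zinc-binding MT2A was at 415 and 800 CPM and ODC1, the first enzyme of polyamine synthesis, at 75.5 and 144 CPM. FABP5, MT1E, AKAP12 and NPW, at 0.0277, 0.0341, 0.177 and 0.111 of the comparison level, were at 0.488, 0.193, 0.695 and 0.742 without the FABP5 and GTSF1 cells. Mitochondrially encoded genes (0 of 13 past the fold) and ribosomal protein genes (0 of 78 higher, 1 lower) had few or no members past it.

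The list counts that follow stand beside 4.48% higher and 7.23% lower over all 8054 genes. Of 19 lysosome and endosome genes 4 were higher and 0 lower, among them the cathepsins CTSH (1.97-fold) and CTSD (1.58-fold). Of 28 ribosome biogenesis genes 5 were lower and 0 higher, and without the FABP5 and GTSF1 cells 1 of 26 was lower. Of 24 genes of the integrated stress response 3 were lower and 0 higher, and without the hypoxia-high cells 0 of 24. Of 9 YAP and TEAD targets 4 were lower (AMOTL2, ANKRD1, AJUBA and the receptor AXL, at 0.376 to 0.653 of the comparison level) and 0 higher. Of 18 NRF2 targets 2 were higher (TKT 1.58-fold and AKR1B10 1.77-fold). Of 13 p53 targets 1 was lower, near the share over all genes. Glycolysis genes had 2 of 16 higher, and 0 of 15 without the hypoxia-high cells.

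**Figure D3:**
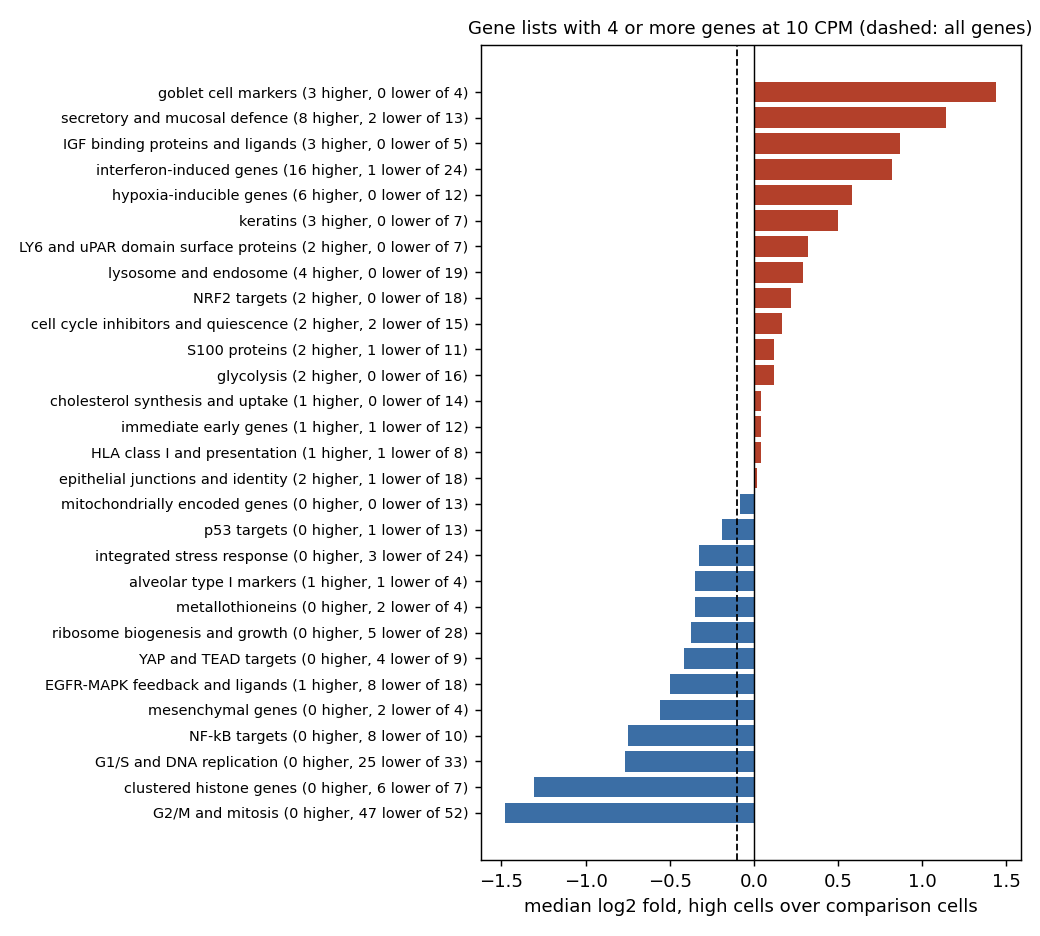
Median log2 fold, PSCA/CEACAM6-high over comparison cells, of each gene list with at least 4 genes at 10 CPM; labels give the number at least 1.5-fold higher and lower, and the dashed line is the median of all genes at -0.10. Goblet cell (1.44) and secretory (1.14) lists lie highest and G2/M lowest, at -1.48. The goblet median is 1.34 and the secretory median 0.62 when the level is taken over all kept cells.

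Along the whole range of the score most of these levels differed step by step. Kept cells of at least 5000 UMIs were put into 5 classes: no UMI, the lower and upper part of the cells between, and the lower and upper part of the members. AGR2 was at 49.9, 66.2, 112, 185 and 338 CPM over the classes. SPRR3 differed most in the last step, at 1.79, 2.55, 3.90, 10.3 and 45.4 CPM, and BPIFB1 was at 1.07, 1.68, 4.23, 9.47 and 29.6 CPM. MKI67 was at 86.5, 83.6, 53.1, 21.1 and 17.9 CPM, so that it was low in both classes of members. Other levels did not keep 1 direction over all classes. The summed G2/M list was at 4015, 4159, 3073, 1920 and 1524 CPM and CENPF at 214, 218, 148, 58.2 and 50.9 CPM. The summed secretory list was at 1577, 1616, 1521, 1528 and 1834 CPM, and IFI6 and ISG15 were lower in the second class than in the first. IFI27 was close between the first classes, at 134, 136 and 169 CPM, and was at 223 and 427 CPM in the members. Hypoxia-high cells made up 2.42, 2.52, 5.00, 9.34 and 25.7% of the classes.

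**Figure D4:**
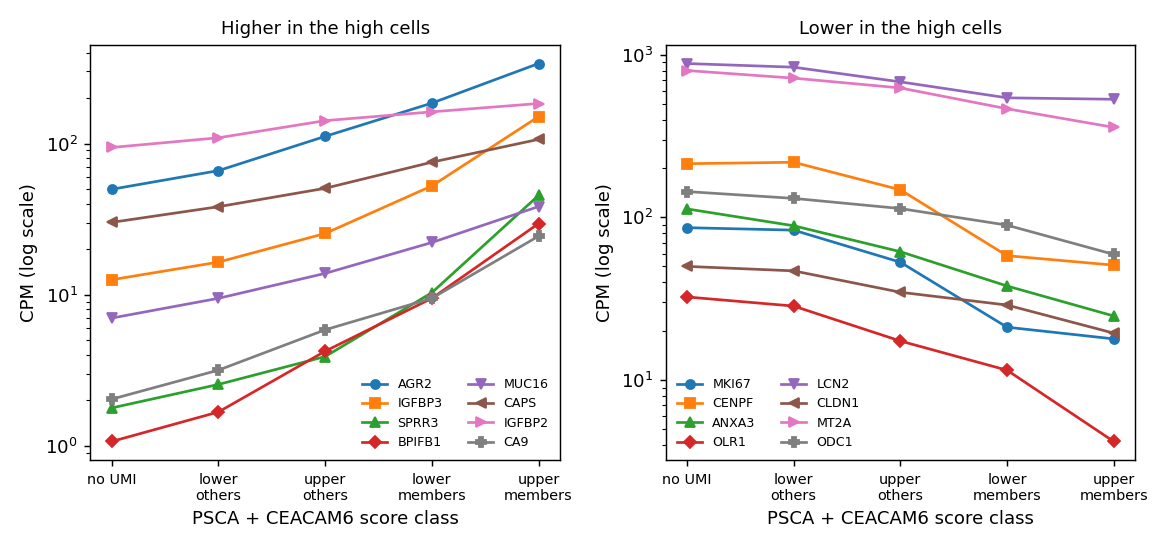
CPM on a log scale of 16 genes in 5 classes of cells ordered by their PSCA and CEACAM6 score. The genes of the left panel are higher in each further class, AGR2 from 49.9 to 338 CPM, and MKI67 in the right panel goes from 86.5 to 17.9 CPM.

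The members were not alike. SPRR3 UMIs were found in 139 of them and BPIFB1 UMIs in 158, with 29 cells holding both. Of the SPRR3 cells 50 were hypoxia-high, against 28 of the BPIFB1 cells. AGR2 was at 518 CPM in the 177 hypoxia-high members and at 213 CPM in the other 837, IGFBP3 at 424 and 44.6 CPM and PSCA at 430 and 337 CPM. BPIFB1 was at 22.5 and 18.4 CPM in the same sets, and so differed least of these. In the 139 members with PSCA only, AGR2 was at 241 CPM and CAPS at 105 CPM, close to the 262 and 89.0 CPM of the members with both genes. In the 58 with CEACAM6 only, AGR2 was at 215 CPM and BPIFB1 at 1.98 CPM, against 19.98 CPM in the members with both. The BPIFB1 level of these 58 cells rests on too few UMIs for a comparison.

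Markers that define mature airway cells were mostly absent. Of 9 club cell genes 3 reached 10 CPM in the higher group, and BPIFB1 and MSMB (13.2 and 3.11 CPM, 4.24-fold), a secreted prostate and airway protein, were higher, both admitted by their level in members. MSMB varied over the subsets and rested on few UMIs in each. It was higher in the ATF4, CTCF, CTNNB1 and JUN members, at 7.09 to 18.9 CPM against 1.96 to 3.54 CPM. In the control subset it was at 3.36 and 3.33 CPM, in MYC cells at 0 and 4.34 CPM and in PGAM1 cells at 0 and 4.23 CPM. The MYC and PGAM1 members held only 241231 and 219732 UMIs of all genes, too few to read a value of 0 as a difference. No UMI of SCGB1A1, the main club cell secretion, was found, the ciliated cell regulator FOXJ1 had 3 UMIs in members and 1 in comparison cells, and the goblet mucin MUC5AC had 2 and 4. The alveolar genes SFTPB and SFTPC had 0 UMIs in the members, but other alveolar genes were present. Of 10 alveolar type I genes 4 reached 10 CPM in the higher group, of which 1 (EMP2) was higher and 1 (CAV1) lower. That list summed to 443 CPM in members and 507 CPM in comparison cells. Of 13 alveolar type II genes 1 (LPCAT1) reached the level, and it was not past the fold. Of 8 goblet cell genes 4 reached the level, and AGR2, MUC5B and SPDEF were higher. Of the 3 at 10 CPM over all kept cells 2 were higher, so that SPDEF entered through the members. Of 15 ciliated genes 2 reached 10 CPM in the higher group, CAPS and RSPH1, and both were higher. Basal cell keratins were absent or near 0 apart from KRT15 (KRT5 had no UMI). Markers of fibroblasts and endothelium summed to 3.37 CPM in members and 4.21 in comparison cells, and of 12 immune genes only CD68, a lysosomal protein also found in other cells, was at level, at 33.2 and 14.8 CPM. The cells are named here by PSCA and CEACAM6, not by a cell type.

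The sgRNA of a cell was not used to choose members, so the share of PSCA/CEACAM6-high cells was compared between sgRNAs, with sgRNAs as the unit. Of the 5556 cells assigned to 1 sgRNA, control sgRNAs had shares of 8.81, 11.3, 12.2 and 12.99% (mean 11.3 ± 1.81, SD, n = 4). All 6 ATF4 sgRNAs lay below the lowest control, at 3.09 to 8.20% (median 7.55%, mean 6.75 ± 1.93). The ATF4 difference was -4.58 percentage points (exact permutation test, two-sided, p = 0.00952, the smallest this design allows). Adjusted over 6 targets, this exact permutation p was 0.0571. With only the top 5% of cells as members the ATF4 difference was -1.18 points (exact adjusted p = 0.529), and with the top 20% it was -8.49 points (exact adjusted p = 0.0571). All 4 PGAM1 sgRNAs also lay below it, at 1.85 to 7.48% (mean 4.30 ± 2.54), a difference of -7.03 points (exact p = 0.0286, the smallest this design allows; adjusted p = 0.0857). It was -4.20 points with the top 5% and -3.49 points with a score from CEACAM6 alone. CTNNB1 sgRNAs had 5.50 to 10.3% (mean 8.90 ± 1.80; exact p = 0.0571, adjusted p = 0.114). JUN sgRNAs had 7.14 to 12.5% (mean 9.68 ± 1.77; exact adjusted p = 0.229), and CTCF sgRNAs 8.45 to 14.6% (mean 11.9 ± 2.33; exact adjusted p = 0.705). Both tested MYC sgRNAs lay above the controls, at 21.7 and 33.3% (mean 27.5 ± 8.20). The other MYC sgRNAs were under the minimum of 20 cells, with 1 of 10 cells, within the range of the controls, and 4 of 16 cells. The tested difference of 16.2 points had an exact p of 0.133, the smallest that 2 against 4 sgRNAs can give, and an adjusted p of 0.2. It was 10.4 points without MYC sgRNA 4. Cells with MYC sgRNAs had a median of 10275.5 UMIs against 12110.5 in control cells. Hypoxia-high cells made up 6.14% of control cells and less in every target. They were 3.26% of ATF4, 3.30% of PGAM1, 4.26% of MYC, 4.45% of CTNNB1, 5.26% of JUN and 5.33% of CTCF cells. Without them the differences were -3.91 points for ATF4 and -5.43 points for PGAM1 (exact permutation test, adjusted p = 0.16 for each). After adjustment 0 of the 6 targets passed 0.05. A target that alone reached the smallest p of its test could not pass, so this count does not show that shares were equal. All sgRNAs come from 1 culture, so these p-values measure the spread between sgRNAs only.

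**Figure D5:**
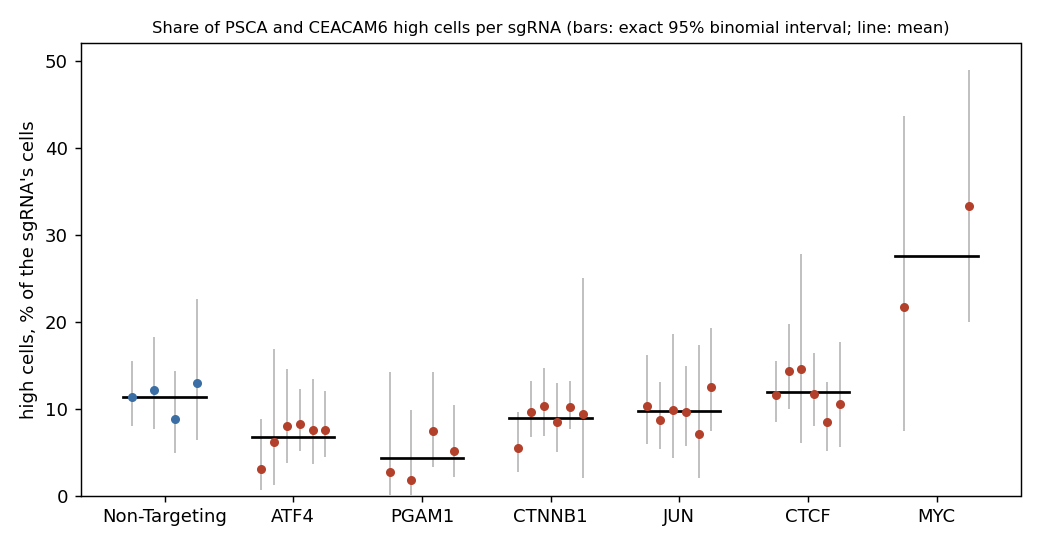
Share of PSCA/CEACAM6-high cells among the cells of each sgRNA with at least 20 assigned cells, in percent, with exact 95% binomial intervals and the mean of each target. The 6 ATF4 and 4 PGAM1 sgRNAs lie below the controls (8.81 to 12.99%) and the 2 MYC sgRNAs above them.

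Within the PSCA/CEACAM6-high cells, the gene sums of 22 sgRNAs with at least 10 member cells were compared between targets and the 4 controls by edgeR's quasi-likelihood test, over 4149 genes with Benjamini-Hochberg adjustment. ATF4 (3 sgRNAs in the fit), CTNNB1 (5) and JUN (4) gave 0 genes past 0.05 (0% of 4149 genes) with edgeR and 0 with DESeq2. At an unadjusted edgeR p under 0.05 they gave 254, 181 and 219 genes. Without any change a share of about 0.05 of the 4149 genes would lie there, so these counts are not read as changes. CTCF gave 1 gene, or 0.0241% of 4149, which DESeq2 did not call. This was NMB, neuromedin B, a small secreted peptide, at 327 ± 56.0 CPM in 5 sgRNAs and 519 ± 76.9 in 4 controls (log2 difference -0.63 ± 0.13 SE, edgeR adjusted p = 0.0498). Without control sgRNA 1 or without control sgRNA 3 CTCF gave 0 genes, and without control sgRNA 4 it gave 2. MYC, with 1 sgRNA of 15 member cells, gave 6 genes (0.145%), 5 higher and 1 lower, and 2 with DESeq2 or with MYC and controls alone. The fit assumes that a lone sgRNA spreads as those of other targets do, so these 6 have no replicate check and are given as values. AL137800.1 was among them with all 50 of its UMIs in 1 cell, and GDF15 and MT2A had 56.9% and 36.4% of theirs in 1 cell. LCN2 was at 89.6 CPM in the MYC sgRNA and 599 ± 262 CPM in the controls and rested on 12 UMIs. The other calls were KLK6, a serine protease, at 1105 against 610 ± 83.9 CPM, and CRABP2, a carrier of retinoic acid, at 605 against 300.3 ± 53.8 CPM. No targeted transcript passed: JUN was at 51.3 ± 23.2 CPM in JUN sgRNAs and 88.5 ± 27.1 in controls (edgeR adjusted p = 0.658). PGAM1 had no sgRNA with 10 member cells and could not be fitted.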

How the data were processed

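The deposited values are whole-number counts of UMIs per gene and per sgRNA in each barcode, made by the authors, per the file headers with Cell Ranger 6.1.2; the submitters' processing notes name hg38. Alignment settings, annotation release and cell calling: not given in the sources used here. There are 36601 genes and 36 sgRNAs; 24809 gene identifiers were matched to RefSeq positions. No doublet caller was run; assignment to 1 sgRNA (at least 5 UMIs and 80% of a cell's sgRNA UMIs) served as an alternative.

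The members, the gene lists and the tests were chosen with earlier results of these data known. Levels are sums of counts as CPM, with exact 95% Poisson intervals that cover counting error only. A gene counted when it had at least 10 CPM in the higher group and differed at least 1.5-fold; with 1 culture no test of these folds was made. A level over all kept cells was an alternative. Named genes were the proposed markers, each targeted transcript, the 14 largest folds in each direction at 20 CPM or more with the same direction in all 7 subsets, from each list up to 4 genes past the fold by level (otherwise the 2 highest), and up to 6 genes per target of the fit. Genes outside this rule were chosen after their values were seen; these include CA9, NDRG1, VEGFA, MUC1, IFIT1, IFI6, IFI44L, IRF1, LY6K, LTB, CXCL1, EPHA4, KRT6A, FABP5, AKAP12 and NPW.

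Shares per sgRNA (at least 20 cells) were compared by exact permutation tests. Sums within members (at least 10 cells per sgRNA, 108612 to 578368 counts) were fitted with edgeR 4.0.16 (R 4.3.3) and, as an alternative, DESeq2 1.42.0. Thinning drew 5000 UMIs per cell and left out 50 members and 0 comparison cells. The computations were tested on simulated data.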

Additional observations from a re-analysis of the deposited data

How the results depend on the processing

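The 4.48% and 7.23% of genes past the fold depended on how the cells were chosen. With the top 5% as members 566 genes were higher and 936 lower, and with the top 20% 205 and 364. With all other cells of at least 5000 UMIs as comparison 232 were higher, with a score from CEACAM6 alone 358 were lower, and in cells with few cell cycle UMIs 235 were lower. A minimum of 10 CPM over all kept cells, chosen after seeing the data, gave 273 and 528. A minimum of 50 CPM gave 134 and 148 genes, and 3 UMIs in each group gave 1791 and 1739. Without the FABP5 and GTSF1 cells, an alternative chosen after seeing the data, 341 were higher and 528 lower, and without the hypoxia-high cells, also chosen then, 320 and 535. Of 164 named folds under 17 alternatives, those that turned direction were in cells with few cell cycle UMIs only: ANLN at 1.05, UBE2C at 1.03, HMGB2 at 1.01 and HIST1H1D at 1.18. In those cells ANLN (2.25 and 2.14 CPM) and HIST1H1D (2.60 and 2.21 CPM) were below the 10 CPM level.

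No target's share passed the adjusted threshold under any alternative run. With so few sgRNAs, a target alone at the smallest p of its test could not have passed there either. The CTCF difference in shares reversed to -3.79 percentage points with at least 10 UMIs and 90% for the sgRNA. Leaving out 1 sgRNA in turn it ran from -0.29 points (without the third control sgRNA) to 1.24. Within members, without a filter on low counts, 6 genes changed with ATF4, 4 with CTCF, 2 with CTNNB1 and 1 with JUN. Leaving out 1 control in turn gave 0 to 2 genes for CTCF, 0 to 1 for CTNNB1 (1 without control 4), 0 to 2 for JUN (2 without control 1), 4 to 8 for MYC and 0 for ATF4. With each target and the controls alone CTCF gave 0 and MYC 2, and DESeq2 gave 0 and 2. The cause of these changes was not tested. No paired analysis was possible because target and control sgRNAs share only numbers in their names, given to different guides, within 1 culture. Few member cells per sgRNA limit what these fits can show.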
